A study of Drosophila melanogaster with 6 samples.

Results

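The genes described here are 10 genes of DNA replication licensing, taken by symbol from the 15135 features measured in whole Drosophila melanogaster embryos. They are dup (Cdt1), its inhibitor geminin, the 6 subunits of the Mcm2-7 helicase (Mcm2, Mcm3, dpa, Mcm5, Mcm6 and Mcm7, dpa being the fly Mcm4), the origin recognition gene Orc1 and the sliding clamp gene PCNA. The study compared polyadenylated RNA of wild-type embryos (3 libraries) with that of spo mutant embryos (3 libraries), all near stage 14, to look for targets of ecdysone, the insect steroid hormone. spo, or spook, is needed to make ecdysone, as it codes for 1 of the cytochrome P450 enzymes of its synthesis. No allele, genetic background, collection window or sorting of mutant embryos is named in the labels. The p-values below therefore cover the spread among these 6 libraries, which may be partly technical.

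A chromosome is licensed for replication when the origin recognition complex and Cdc6, together with Cdt1, load the ring-shaped Mcm2-7 helicase onto DNA in pairs. Once S phase starts, Cdt1 is destroyed or held by geminin, so that no origin is loaded again, and PCNA clamps the polymerases to the moving fork and takes part in the destruction of Cdt1. In late fly embryos most epidermal cells have left the mitotic cycle, while neuroblasts go on dividing and tissues such as the salivary gland and the midgut replicate DNA without division.

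All 10 genes were well expressed in both genotypes, and their differences between genotypes were unequal. In spo embryos dup was higher by 54.0%, geminin by 25.2%, Mcm7 by 22.2% and Mcm6 by 16.6%, while Mcm5 fell by 9.09%. Values are TPM, reads per gene length scaled to a sum of 1000000 in each library. They can be compared between genes, but between libraries only as shares of that sum. Mean levels in wild type ran from 37.5 TPM for Orc1 to 257 TPM for geminin. Between 2719 and 18104 reads per library, rebuilt from the TPM values, stood behind each gene. Where 3 values are given for a genotype, they stand in the order of replicates 1, 2 and 3, and values with ± are means with their SD over 3 libraries.

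The mutated gene spo was scarce in all libraries, at 0.944, 0.726 and 0.696 TPM in wild type and 0.610, 0.470 and 0.306 TPM in spo. Its values lay lower in each mutant library than in any wild-type library. The library of spo replicate 2 stood apart from the other mutant libraries, for example in Hr46, a nuclear receptor gene of the ecdysone cascade, with 139.9, 138 and 135 TPM in wild type and 4.73, 33.7 and 4.72 TPM in spo. Calls that change without it are given below.

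Tested with limma on log2(TPM + 1) over 10019 features, with a Benjamini-Hochberg adjusted p below 0.05 as the threshold, 4 of the 10 genes rose, 1 fell and 5 did not pass. Of all features tested, 33.9% rose and 27.9% fell (61.7% in either direction), so the share of calls among the 10 genes was close to that background in the direction of a rise and gives no result about the genes as a group. The median log2 difference was 0.11 over the 10 genes and 0.02 over all features tested. The replicate ranges of the genotypes did not overlap for 6 of the 10 genes, against 68.4% of all features. The authors' deposited table also has 4 of the 10 genes higher and 1 lower at a false discovery rate below 0.05. Of the 10019 features tested here, 56.2% passed that rate in the authors' table, in either direction. In bulk RNA of whole embryos, fewer cells of a type and less RNA per cell cannot be told apart.

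**Figure D1:**
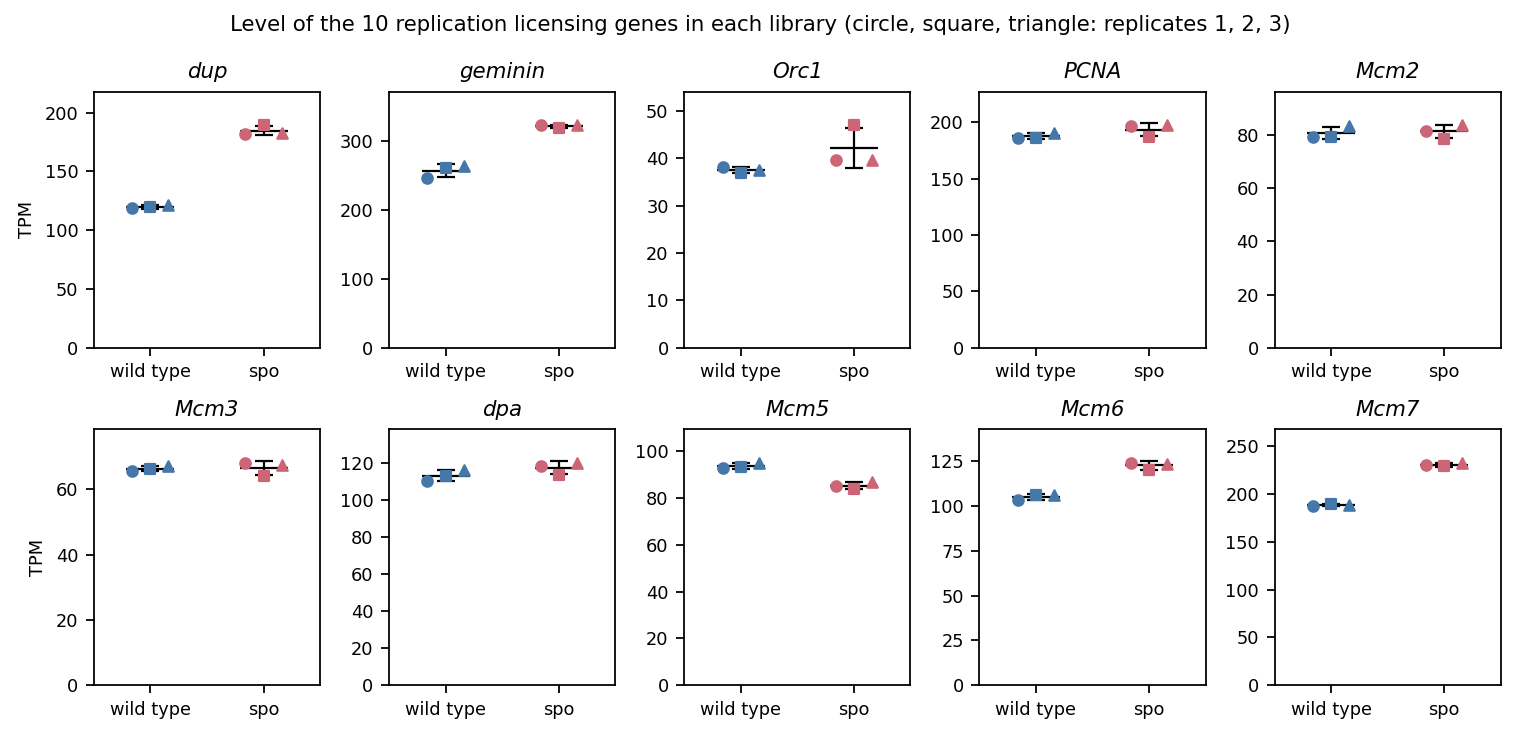
TPM of each of the 10 genes (y axis, from 0) in the wild-type libraries (blue) and the spo libraries (red). Points are single libraries, and the bar and whiskers are the mean and SD over 3 libraries. The genotypes stand apart for dup, with 119 to 122 TPM in wild type and 182 to 189 TPM in spo, and overlap for Mcm2 and Mcm3.

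The licensing factor and its inhibitor had the largest differences of the 10 genes. dup (double parked, FBgn0000996, chromosome 2R, 15376619 to 15380988, minus strand) encodes Cdt1, which brings Mcm2-7 to origins. Its level was 119, 119.6 and 122 TPM in wild type and 182, 189 and 183 TPM in spo. All 3 mutant libraries lay far above all 3 wild-type libraries, and the spread within a genotype was small. limma gave a log2 difference of 0.62 (SE 0.02, adjusted p = 2.72e-06), and 87.5% of all tested features had a smaller absolute difference. A rise at least as large was measured in 6.46% of the tested features. In the authors' deposited table the log2 fold change of dup is 0.60.

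SRPK, a kinase gene on the opposite strand, shares 158 exonic bases with dup. Its level was 103 ± 0.84 TPM in wild type and 101 ± 1.07 TPM in spo. No source used here states whether the counting was by strand, so reads from the shared bases may not be told apart, and their part in the rise of dup was not tested.

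geminin (FBgn0033081, chromosome 2R, 6655463 to 6656594, minus strand) encodes the protein that binds Cdt1 and blocks a second round of loading. It was the most abundant of the 10 transcripts, at 247, 262 and 264 TPM in wild type. The spo replicates held 324, 319.8 and 324 TPM, all above the wild-type libraries and closer to each other than those were. On the log2 scale it rose by 0.32 (SE 0.03, limma adjusted p = 6.38e-05).

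The TPM of the inhibitor exceeded that of its target by less in the mutants. The ratio of geminin TPM to dup TPM was 2.08, 2.19 and 2.17 in wild type, and 1.78, 1.69 and 1.77 in spo. A ratio within a library is free of library scaling, but this one includes any reads from the bases that dup shares with SRPK. log2(dup/geminin) averaged -1.10 ± 0.04 in wild type and -0.80 ± 0.04 in spo, a difference of 0.30. The exact two-sided permutation test over the 6 libraries gave p = 0.1, the smallest value that this test can give with 3 libraries against 3.

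The helicase subunits did not move as a block. Mcm7 (FBgn0020633, chromosome 3L, 8891596 to 8894310, plus strand), whose product sits between Mcm4 and Mcm3 in the ring, rose most among them. Its level was 188, 190.1 and 189 TPM in wild type and 231, 229 and 233 TPM in spo. The genotypes were separated by a gap many times wider than the spread within either. This was a log2 difference of 0.29 (SE 0.02, limma adjusted p = 1.43e-05). An antisense RNA gene, asRNA:CR45871, covers 2003 of the 2451 exonic bases of Mcm7 on the other strand. Its own level is not analysed here, and without a known strand setting its reads may not be told apart from those of Mcm7.

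Mcm6 (FBgn0025815, chromosome X, 6674387 to 6677176, plus strand), an intronless gene in the annotation, was measured at 103, 106 and 106 TPM in wild type. The spo replicates stood at 124, 120.0 and 124 TPM, above every wild-type library. limma put the log2 difference at 0.22 (SE 0.02, adjusted p = 0.00016).

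Mcm5 (FBgn0017577, chromosome 3R, 10788524 to 10791150, plus strand), which with Mcm2 forms the gate through which DNA enters the ring, went the other way. It stood at 92.8, 93.4 and 95.2 TPM in wild type and at 85.1, 83.9 and 86.8 TPM in spo. Every mutant library was below every wild-type library. Its log2 difference was -0.14 (SE 0.02, limma adjusted p = 0.0016), and the authors' deposited table has -0.16.

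The other gate subunit, Mcm2 (FBgn0014861, chromosome 3R, 8264970 to 8267924, plus strand), did not pass the test. Its wild-type libraries held 79.4, 79.5 and 83.3 TPM and its spo libraries 81.7, 78.8 and 83.8 TPM, with full overlap. The log2 difference of 0.01 had a 95% interval from -0.06 to 0.09 (limma adjusted p = 0.759).

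Mcm3 (FBgn0284442, chromosome X, 5323855 to 5326738, plus strand), the least abundant of the subunits, did not pass either. Its wild-type replicates 1, 2 and 3 held 65.7, 66.3 and 67.3 TPM, and its spo replicates 68.2, 64.0 and 67.5 TPM. Its log2 difference was 0.0029, with a 95% interval from -0.07 to 0.07 (limma adjusted p = 0.939). The direction of the differences of Mcm2 and Mcm3 turned with the scaling of the libraries. Median-of-ratios scaling, which sets the median gene equal, gave -0.0081 for Mcm2 and -0.017 for Mcm3. CG3309, on the opposite strand, shares 64 exonic bases with Mcm3 and had 14.8 ± 0.07 TPM in wild type and 21.6 ± 1.21 TPM in spo.

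dpa (disc proliferation abnormal, FBgn0015929, chromosome 2R, 7496702 to 7500145, minus strand), the Mcm4 gene, held 110.3, 113 and 116 TPM in wild type and 118, 113 and 120.0 TPM in spo. The spo replicate 2 library fell among the wild-type values while the other two were above them. Here the log2 difference was 0.05 with a 95% interval from -0.02 to 0.12 (limma adjusted p = 0.167).

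**Figure D2:**
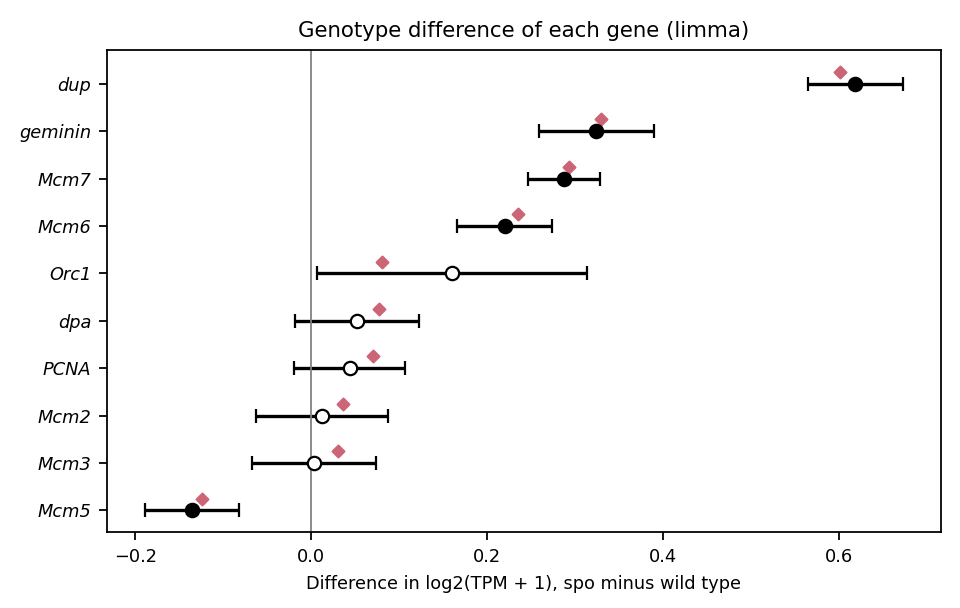
Difference in log2(TPM + 1), spo minus wild type (x axis), for each of the 10 genes. Circles and whiskers are the limma estimate and its 95% interval over 6 libraries, filled where the adjusted p is below 0.05, and red diamonds are the estimate without spo replicate 2. The values run from -0.14 for Mcm5 to 0.62 for dup.

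The make-up of the subunit transcripts also differed in value between the genotypes, while the helicase itself holds its subunits in equal number. Summed over the 6 subunits, the level was 648 ± 8.49 TPM in wild type and 704 ± 13.4 TPM in spo. Mcm7 made up 29.2% ± 0.34 of the sum in wild type and 32.8% ± 0.39 in spo, and Mcm6 16.2% ± 0.14 and 17.4% ± 0.12. Mcm5 supplied 14.5% ± 0.06 in wild type and 12.1% ± 0.08 in spo. The shares of Mcm2 (12.5% and 11.6%), Mcm3 (10.2% and 9.45%) and dpa (17.4% and 16.7%) were lower in spo as well. Shares add up to a whole, so the lower shares of the last 3 accompany levels that did not pass the test, and no share was tested.

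In wild type the order of the subunit levels was Mcm7, dpa, Mcm6, Mcm5, Mcm2 and Mcm3, and each was higher than the next in 3 of 3 libraries. In spo, Mcm6 and dpa changed places, with the other positions as in wild type. The ratio of Mcm6 to dpa was 0.93 ± 0.01 in wild type and 1.05 ± 0.01 in spo. Mcm7 exceeded Mcm5 by a ratio of 2.02, 2.04 and 1.98 in wild type and of 2.71, 2.73 and 2.68 in spo. The Mcm7 and Mcm5 pair and the Mcm6 and dpa pair were chosen after their values were seen and are given with no test.

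**Figure D3:**
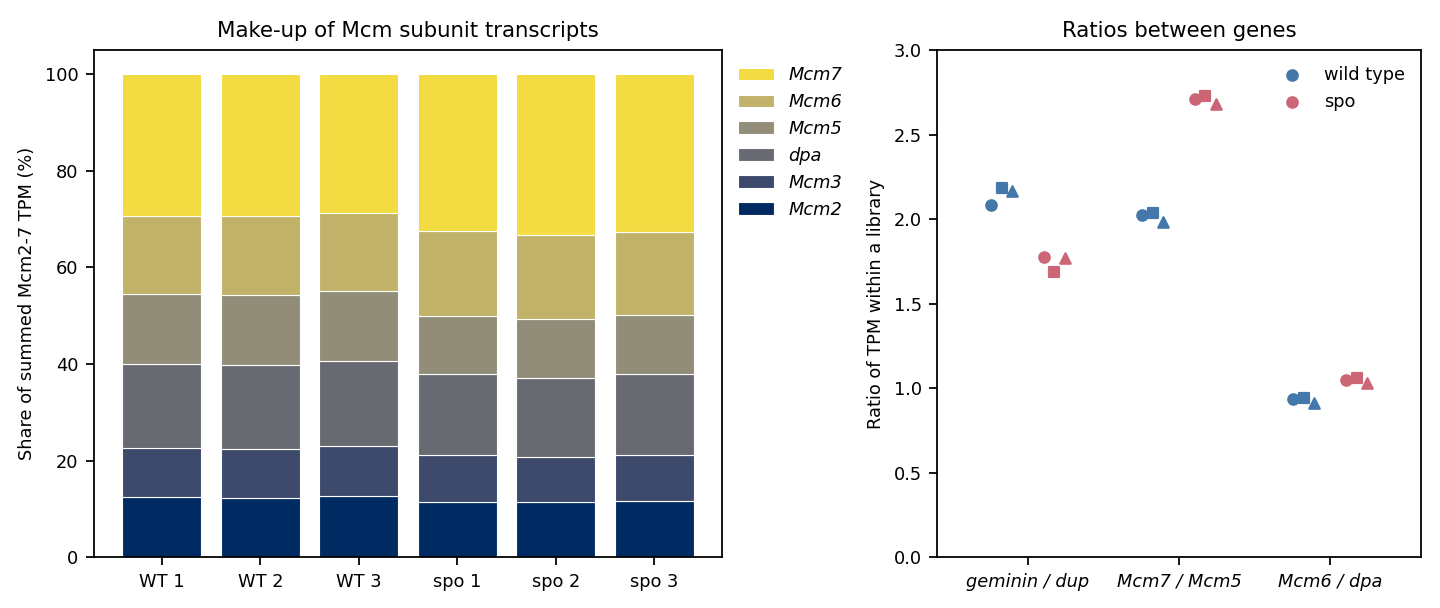
Left, share of each subunit in the summed Mcm2-7 TPM (y axis, percent) in each library. Right, ratio of TPM within a library for geminin to dup, Mcm7 to Mcm5 and Mcm6 to dpa, with single libraries as points (blue wild type, red spo). Mcm7 takes 29.2% of the sum in wild type and 32.8% in spo on average, and Mcm5 14.5% and 12.1%.

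Among all 10 genes, geminin ranked first and Mcm3 and Orc1 last in both genotypes. In wild type Mcm7 and PCNA were neighbours whose ranges overlapped, while in spo Mcm7 stood above PCNA in 3 of 3 libraries. dup, at 120.0 ± 1.58 TPM in wild type, lay below PCNA by a wide gap there, but in spo, at 185 ± 4.02 TPM, its range overlapped that of PCNA. Every other neighbouring pair in the order was separated in range within each genotype, although by a hair in spo for Mcm6 and dpa (lowest Mcm6 and highest dpa both 120.0 TPM) and for Mcm5 and Mcm2 (83.9 and 83.8 TPM).

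PCNA (FBgn0005655, chromosome 2R, 20261754 to 20262883, minus strand), a common marker of S phase, stood at 186, 186 and 190.5 TPM in wild type. It held 196, 186 and 197 TPM in spo, so that spo replicate 2 again lay within the wild-type range. PCNA had a log2 difference of 0.04 with a 95% interval from -0.02 to 0.11 (limma adjusted p = 0.196). Its fly paralog PCNA2, listed as CG10262 and named after its value was seen, fell from 7.11 ± 0.68 to 5.34 ± 0.64 TPM (limma adjusted p = 0.0135).

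Orc1 (FBgn0286788, chromosome 2R, 7522437 to 7525716, minus strand), the large subunit of the origin recognition complex, held 38.1, 36.9 and 37.5 TPM in wild type. The spo replicates held 39.7, 47.0 and 39.7 TPM, all above wild type, with replicate 2 well above the other two. The estimate was 0.16 on the log2 scale (SE 0.07, limma adjusted p = 0.0675), short of the threshold. Without spo replicate 2 it shrank to 0.08 and passed (adjusted p = 0.0331), and without spo replicate 3 it was 0.20 (adjusted p = 0.0486). CG2144, the PIG-G gene on the opposite strand, shares 105 exonic bases with Orc1 and went from 42.9 ± 0.64 to 34.7 ± 1.11 TPM.

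Transcripts of the other origin recognition subunits were all below Orc1 in level. Mean levels were 21.4 TPM in wild type and 20.8 TPM in spo for Orc2, 9.70 and 10.3 TPM for lat (Orc3), 27.6 and 26.9 TPM for Orc4, 21.2 and 21.7 TPM for Orc5 and 19.2 and 20.4 TPM for Orc6. These 5 genes were short of the threshold, with limma adjusted p from 0.167 for lat to 0.479 for Orc2.

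The spo replicate 2 library had the lowest of the 3 spo values for 8 of the 10 genes and the highest for the remaining 2, dup and Orc1. Without spo replicate 2, 7 of the 10 genes rose and 1 fell. Over all features tested, 35.1% rose and 29.5% fell in that fit, 6469 called in all against 6185 with every library. The genes that gained a call were dpa (log2 difference 0.08, limma adjusted p = 0.031), PCNA (0.07, adjusted p = 0.0122) and Orc1. The calls of dup, geminin, Mcm5, Mcm6 and Mcm7 held without that library, with log2 differences of 0.60, 0.33, -0.12, 0.24 and 0.29.

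Other genes of replication were read from written lists, which exclude the 10 genes. Of 17 genes of replication initiation 10 rose and 1 fell, of 26 genes of the replication fork 8 rose and 4 fell, and of 14 regulators of S phase 8 rose and 2 fell, beside 33.9% and 27.9% of all features. The median log2 differences were 0.17, 0.06 and 0.08, beside 0.02 over all features tested. Over the 3 lists, 26 of 57 genes rose and 7 fell, and without spo replicate 2 the counts were 30 and 8.

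Cdc6, the partner of Cdt1 in Mcm loading, held 36.8, 37.1 and 34.3 TPM in wild type and 49.6, 57.7 and 49.8 TPM in spo. The genotypes did not overlap, and spo replicate 2 was highest, as it was for dup and Orc1. Its rise was 0.52 on the log2 scale (SE 0.06, limma adjusted p = 0.000334). Mcm10, which acts when the loaded helicase is switched on, rose from 35.8 ± 0.45 to 51.3 ± 4.02 TPM (adjusted p = 0.000168). It shares 367 exonic bases with Ret on the opposite strand.

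Sld5, a subunit of the GINS complex that completes the active helicase, had the steepest rise of the 3 lists. It went from 9.73 ± 0.53 to 19.8 ± 0.36 TPM (log2 difference 0.96, limma adjusted p = 7.58e-06). The other GINS genes, named after their values were seen, had smaller log2 differences of 0.16 for Psf1, 0.21 for Psf2 and 0.29 for Psf3 (adjusted p = 0.0468, 0.0443 and 0.000802). Psf3 shares 831 exonic bases with CG17841 on the opposite strand. CDC45L, whose product joins GINS and Mcm2-7 in the active helicase, did not pass (0.10, adjusted p = 0.0731). rec, a distant Mcm relative (Mcm8) that acts in meiotic recombination, rose from 3.01 ± 0.31 to 5.59 ± 0.50 TPM (adjusted p = 0.00032), and 1100 of its exonic bases are shared with alpha-Man-IIb on the other strand.

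The Dbf4-dependent kinase, which triggers loaded helicases, had its subunits on opposite sides. Its activator chif rose from 116 ± 1.35 to 135 ± 4.46 TPM (log2 difference 0.22, limma adjusted p = 0.00042), and its catalytic subunit Cdc7, listed as l(1)G0148, fell from 51.4 ± 1.25 to 46.4 ± 1.91 TPM (-0.14, adjusted p = 0.0113). Both were named after their values were seen. chif shares 1507 exonic bases with Hyls1 on the same strand, where counting by strand would not tell their reads apart.

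At the replication fork 14 of the 26 genes did not pass. The chromatin assembly gene Caf1-180 rose most, from 62.0 ± 1.95 to 84.6 ± 2.14 TPM (limma adjusted p = 2.89e-05). Top2, which untangles daughter DNA, rose from 292 ± 4.52 to 325 ± 4.31 TPM, the clamp loader gene RfC38 from 26.1 ± 0.87 to 31.3 ± 0.16 TPM and the single-strand binding gene RPA3 from 65.5 ± 1.76 to 74.4 ± 1.43 TPM. RfC38 shares 404 exonic bases with Nup160 and RPA3 shares 32 with CG1703, both on the opposite strand. Beside PCNA2, the genes that fell were RnrS, of ribonucleotide reductase, the clamp loader gene RfC3 and Fen1, named after their values were seen. Their log2 differences were -0.12, -0.18 and -0.13 (limma adjusted p = 0.00154, 0.0151 and 0.0165). Fen1 shares 80 exonic bases with IntS8 on the opposite strand. Genes that did not pass included RnrL, of ribonucleotide reductase, with 111 ± 2.02 and 112 ± 0.68 TPM, Ctf4 with 16.5 ± 0.74 and 15.8 ± 0.59 TPM, and the clamp loader gene CG8142 with 19.4 ± 0.22 and 19.0 ± 0.22 TPM.

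**Figure D4:**
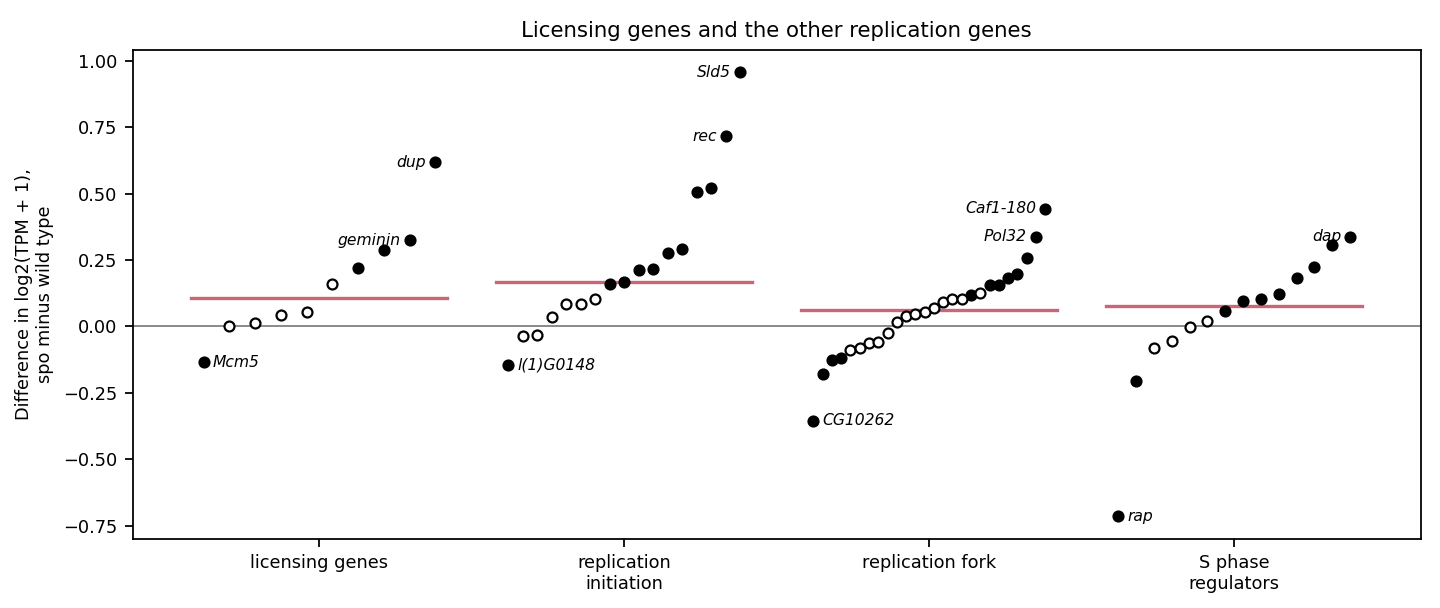
Difference in log2(TPM + 1), spo minus wild type (y axis), for the 10 licensing genes and for the genes of replication initiation (17), the fork (26) and S phase regulation (14). Each point is a gene, filled where the limma adjusted p is below 0.05, and the red line is the list's median. Sld5 lies highest at 0.96 and rap lowest at -0.72.

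Regulators of S phase entry and exit went both ways. dap, the fly p21 and p27 relative that inhibits cyclin E with Cdk2, rose from 549 ± 17.2 to 694 ± 13.0 TPM (limma adjusted p = 5.51e-05). Dp, the partner of E2F factors, rose from 261 ± 1.73 to 304 ± 3.0 TPM, while the repressor E2f2 fell from 107 ± 1.84 to 92.6 ± 0.72 TPM. E2f2 shares 399 exonic bases with Mpp6 and Dp shares 27 with Fsn, both on the other strand. The activator E2F gene, listed as E2f, did not pass, at 166 ± 4.97 and 157 ± 12.3 TPM. It shares 283 exonic bases with asRNA:CR46055 on the other strand. Rca1, at 83.9 ± 0.70 and 85.0 ± 0.38 TPM, did not pass either. Nor did Cul4, of the ligase that marks Cdt1 for destruction, at 105 ± 2.27 and 105 ± 1.28 TPM. Other genes of that ligase, named after their values were seen, rose slightly. l(2)dtl, the Cdt2 gene, went from 20.2 ± 0.47 to 22.1 ± 0.14 TPM (limma adjusted p = 0.0165). pic went from 134 ± 2.29 to 140 ± 2.05 TPM (limma adjusted p = 0.04997, just under the threshold).

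The steepest fall of the 3 lists was that of rap, the symbol used here for fzr, which activates the anaphase-promoting complex in cells that leave the mitotic cycle. It stood at 295, 287 and 289 TPM in wild type and at 166, 198 and 167 TPM in spo. All mutant libraries were far below wild type, with spo replicate 2 nearest to it. It fell by 0.72 on the log2 scale (SE 0.06, limma adjusted p = 8.28e-05).

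Markers of other sources of RNA were read from the same fit, in which 33.9% of all features rose and 27.9% fell. Of 13 transcripts known to be supplied by the mother, 11 rose, and their summed level was 194 to 196 TPM in wild type and 371 to 425 TPM in spo, highest in spo replicate 2. bcd stood at 0.517 ± 0.082 and 13.0 ± 2.63 TPM, osk at 0.500 ± 0.035 and 2.16 ± 0.53 TPM, swa at 0.609 ± 0.094 and 17.0 ± 1.91 TPM and wisp at 1.11 ± 0.14 and 31.8 ± 3.64 TPM. Most of that sum in wild type was stau, with 182 ± 1.84 TPM.

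Of 8 neuroblast genes 5 rose and 2 fell, beside 33.9% and 27.9% of all features. Their summed level was 740.3 to 747 TPM in wild type and 773 to 795 TPM in spo. ase went from 69.6 ± 1.41 to 93.2 ± 2.26 TPM, dpn from 80.2 ± 3.23 to 86.6 ± 2.0 TPM, mira from 211 ± 2.90 to 247 ± 1.39 TPM and wor from 56.9 ± 1.86 to 75.7 ± 2.44 TPM. The genes that fell were insc, from 48.6 ± 1.17 to 36.7 ± 0.77 TPM (limma adjusted p = 3.97e-05), and brat, from 184 ± 5.13 to 150.0 ± 15.2 TPM (adjusted p = 0.00635). Of 8 genes of salivary gland and midgut, tissues that replicate without division, 3 rose and 2 fell. Calls in either direction were thus close to the 61.7% of all features. The summed level of these genes was 634 to 650.0 TPM in wild type and 608 to 639 TPM in spo, with overlapping ranges. Among these, fkh stood at 154 ± 0.56 and 157 ± 10.7 TPM, sage at 20.7 ± 0.30 and 21.7 ± 0.40 TPM, CrebA at 255 ± 7.66 and 212 ± 11.2 TPM and pip at 72.7 ± 0.36 and 79.2 ± 0.59 TPM. Others of the list are named after their values were seen. Mal-A1 had its largest difference, from 8.11 ± 0.73 to 19.1 ± 1.86 TPM (limma adjusted p = 4.02e-05). PH4alphaSG1 rose from 46.5 ± 0.87 to 53.5 ± 3.37 TPM, and PH4alphaSG2 fell from 36.1 ± 0.77 to 29.7 ± 1.18 TPM. No defining marker of the whole embryo was absent, since elav of neurons, Mef2 of muscle, GATAe of endoderm, srp of fat body and hemocytes, and vas of the germ line were each above 4 TPM on average in both genotypes. Of these, elav fell from 236 ± 8.10 to 180.2 ± 19.5 TPM (limma adjusted p = 0.00252) and srp from 54.9 ± 1.69 to 48.6 ± 2.77 TPM (adjusted p = 0.0118). Mef2 rose from 145 ± 0.84 to 158 ± 1.68 TPM (adjusted p = 0.00109) and vas from 4.25 ± 0.14 to 6.51 ± 0.13 TPM (adjusted p = 0.000168). GATAe, with 48.9 ± 0.20 and 47.1 ± 0.95 TPM, did not pass (adjusted p = 0.107). The part of all these cell types and of maternal RNA in the differences of the licensing genes was not tested.

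The 6 features whose profiles over the 6 libraries lay nearest to the mean profile of the Mcm subunits were ft, ptc, RIOK2, eIF3-S8, Ef1gamma and Rbcn-3A. Nearness was the Euclidean distance between centred log2(TPM + 1) values, from 0.016 for ft to 0.024 for Rbcn-3A, among 7253 features with a mean of at least 10 TPM. The mean profile differs by 0.07 on the log2 scale between the genotypes, and 777 features lay within a distance of 0.1 of it, which is 10.7% of the candidates.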

How the data were processed

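The authors deposited TPM for 6 libraries and a table of their own log2 fold changes, mean log2 CPM, likelihood ratio score, p-values and false discovery rates. The tools listed, per the submitters' processing notes, are STAR 2.5.3a, FastQC 0.11.2, Subread, featureCounts and edgeR, with the build dm6. Neither an annotation release nor a strand setting is stated there. TPM is relative, so large rises lower all other values of a library.

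TPM times Ensembl exon length gave whole reads (tolerance 0.01) for 14194 of 14969 features with a length (94.8%), in all 46252274 to 67889707 reads per library. Of all 15135 features, with or without rebuilt reads, the 10019 at 1 TPM or more in 3 or more libraries were tested. Their TPM values were log2-transformed after adding a pseudocount of 1 and entered, by genotype alone, into limma 3.58.1 (R 4.3.3, trend option). All 10 genes passed this filter. Coordinates are from Ensembl's BDGP6 annotation, which has dm6 coordinates. The fit was tested on simulated data, where it recovered 68 of 100 log2 changes of 0.2 and 90 of 100 of 0.6. It called 12 of 9211 unchanged genes there. The simulated spread was set in advance, and no simulated library stood apart as spo replicate 2 does. A gene that did not pass can therefore still differ by a small amount. The closing section names the alternatives.

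The 10 genes and all lists were chosen with earlier results of these data known. Beside the 10 genes, the text names from each pathway list the 4 genes with the smallest p and 3 with the largest, the first 4 genes of each marker list, and others where said. Of 27 fork genes written, 26 matched a feature.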

Additional observations from a re-analysis of the deposited data

How the results depend on the processing

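Under 14 alternatives (pseudocount 0.1, no filter, a filter of 10 TPM, median-of-ratios or upper-quartile scaling, voom on rebuilt reads, library quality weights, the replicate block and each library left out), dup, geminin, Mcm5, Mcm6 and Mcm7 kept direction and call. Their log2 differences ran from 0.58 to 0.63, 0.29 to 0.34, -0.17 to -0.12, 0.18 to 0.24 and 0.25 to 0.29. The number of the 10 genes that rose was 4 and ran from 4 to 7 with 1 library left out, 7 being without spo replicate 2, where 6469 of all 10019 features were called against 6185. With library quality weights, where 6852 were called, it was 6, as dpa (0.07, adjusted p = 0.0225) and PCNA (0.07, adjusted p = 0.0135) passed. The differences of Mcm2 and Mcm3 turned negative with median-of-ratios scaling (-0.0081 and -0.017), upper-quartile scaling (-0.023 and -0.032) and voom (-0.0093 and -0.019), and ran from -0.0086 to 0.036 and from -0.015 to 0.030 with 1 library left out. The cause was not tested, but none of these passed. With the replicate block, 6086 genes were called against 6185, and no call among the 10 genes changed. Deviations of same-numbered libraries from their group means correlated at -0.028, 0.045 and 0.129, and not every library correlated best with its own number. Correlations this weak neither show nor exclude that the numbers pair the libraries. The block gave 0.30 for log2(dup/geminin), with an exact sign-flip p of 0.25, the smallest that 3 pairs allow. Over its 9 alternatives that difference ran from 0.27 to 0.32. Called pathway genes that rose ran from 19 with upper-quartile scaling to 34 with library quality weights, where 29.1% and 37.3% of all features rose. Those that fell ran from 5 without wild type replicate 2 to 9 with voom and with library quality weights. Of all features, 24.1%, 31.1% and 31.1% fell in these fits.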
